A study of Arabidopsis thaliana with 6 samples.

Results

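The 8 genes described here are MADS-box transcription factor genes of Arabidopsis thaliana grouped as pollen MADS-box genes, most of which are known to be active in pollen: AGL30, AGL65 and AGL94 (P clade of the MIKC* class), AGL66, AGL67 and AGL104 (S clade of the same class), AGL18 and AGL29. They were picked by locus from all 25964 loci with a read, and 7 of the 8 had a read in at least 1 library; AGL67 was listed in none. The RNA came from flower buds of plants of the Columbia background, either the atcep1 mutant or the wild type (WT). CEP1 is a papain-like cysteine protease; the labels do not name the mutant allele. Buds of each genotype were grouped by how far their anthers had developed: class A held anther stages 5 to 6, class B those from 7 to 9, and class C those from 10 to 11, called stages A, B and C below. One library was made per genotype and stage, so 6 libraries in all, of 4038000 to 4412000 uniquely mapped reads (to the nearest 1000).

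MADS-domain proteins bind DNA as dimers, at sequences called CArG boxes. In Arabidopsis pollen, an S-clade MIKC* protein (AGL66 or AGL104) pairs with a P-clade one (AGL30, AGL65 or AGL94), and these dimers prefer the MEF2-type CArG box. They are known to act late in pollen development, where mutants that lack several of them make pollen with poor viability and germination and with altered expression of late pollen genes. AGL18 belongs instead to the MIKCc class, as the floral organ identity genes do, and represses flowering in leaves and shoots besides being present in pollen. AGL29 is a type I MADS-box gene, a class without the keratin-like domain of the MIKC proteins.

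The atcep1 libraries held more transcript of 3 of the 8 genes, AGL66, AGL104 and AGL94, by 2.2-fold to 3.9-fold on the fitted scale, and the test of genotype called each of the 3 (adjusted p below 0.05). Without the stage term none was called; AGL94 alone had an unadjusted p under 0.05 in edgeR there. AGL30, the gene with the highest mean level, and AGL65 and AGL29 were tested and not called. In all tested genes 16.0% were called higher in atcep1 and 11.5% were called lower (2573 and 1859 genes; 2246 and 2253 without TMM, 1956 and 2007 in limma on log2(RPKM + 1), so the excess of higher calls depends on the scaling); none of the 8 genes was called lower, and none was lower at an unadjusted p under 0.05 in edgeR or DESeq2. AGL66 and AGL104 also rose between stages A and B. Over the 3 stages together, the reads that fit 1 model of AGL65 alone came mostly from its longer coding model in atcep1 and mostly from its other model in WT. In WT at stage C the models were about level (9 and 10 reads). This comparison was chosen after the values were seen.

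Several facts about all libraries bear on these values. Each combination of genotype and stage was sequenced once, so the test (edgeR's quasi-likelihood test, stage plus genotype, 16114 genes) measures the genotype difference against its variation over the 3 stages, with 2 residual degrees of freedom. The test also draws each gene's spread towards a trend over all genes, so the p-values rest partly on the spread of other genes. CEP1 itself had 4, 5 and 6 reads in atcep1 at A, B and C and 0, 1 and 6 reads in WT, at or near the floor of 3 reads, and so does not check the labels; atcep1 and WT mean the libraries so labelled throughout. The buds held anther cells of several kinds. All 11 tapetum markers had reads, with summed levels of 299 to 2065 RPKM in atcep1 and 49.6 to 644 RPKM in WT, and 10 were higher in atcep1 at every stage. The 7 male meiocyte markers summed to 14.2 to 32.7 RPKM in atcep1 and 26.4 to 63.3 RPKM in WT, and 5 were lower in atcep1 at every stage. The 30 late pollen genes summed to 614, 3145 and 7623 RPKM in atcep1 at A, B and C, against 250, 1540 and 4108 RPKM in WT, and so were higher in atcep1 at every stage as a sum. Gene by gene, 14 of the 30 were higher in atcep1 at every stage and none was lower at every stage. More cells of a type and more RNA per cell cannot be told apart in whole buds, and the part of cell composition or of a difference in developmental stage in the results below was not tested.

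AGL66 (AT1G77980, chr1:29314841-29317067 in TAIR10, minus strand, 1 listed model of 1370 bases) is an S-clade gene. It had 4, 28 and 73 reads in atcep1 at stages A, B and C, which is 0.706, 4.91 and 12.1 RPKM. In WT it had 0, 8 and 20 reads, or 0, 1.42 and 3.44 RPKM. The atcep1 library was the higher one at every stage, and the levels climbed with stage in both genotypes, so that the level in atcep1 at stage B lay above that in WT at stage C. Over the 3 stages AGL66 was 1.95 ± 0.34 (SE) higher in atcep1 on the log2 scale, the largest difference among the 8 genes (adjusted p = 0.00451, edgeR). Within a stage the ratio of reads, atcep1 over WT, was 3.45 at B (95% interval 1.53 to 8.75) and 3.51 at C (2.12 to 6.09). At A the 4 reads against none give an interval that starts at 0.644, so a difference at that stage was not detectable at this depth. AGL66 passed the filter on low counts through 3 libraries, atcep1 at B and C and WT at C, and was not tested without the 2 stage C libraries. It was called by the 14 alternatives with a stage term that could test it (adjusted p from 0.00175 to 0.0221).

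AGL104 (AT1G22130) is the second S-clade gene and acts together with AGL66 in pollen. Its promoter is shown because it was the only one of the 8 that held a MEF2-type CArG box, the box that MIKC* dimers prefer. The box was searched as the letters CTA and TAG with 4 letters between them, each A or T, on both strands, from 250 bases before to 50 bases after the RefSeq gene start. The 250 bases before the start, at chr1:7814346-7814595 (TAIR10.1, RefSeq, minus strand, written 5′ to 3′), carry the box in capitals:
AGL104 promoter: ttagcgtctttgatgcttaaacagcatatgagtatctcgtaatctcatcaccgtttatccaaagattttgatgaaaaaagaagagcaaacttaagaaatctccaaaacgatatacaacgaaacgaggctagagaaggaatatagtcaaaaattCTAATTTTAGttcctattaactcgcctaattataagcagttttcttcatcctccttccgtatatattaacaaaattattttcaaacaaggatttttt
The box starts at position -97 from the gene start. A box of this type is present in 2.49% of 27443 protein-coding promoters of the same length. The SRF-type box, CC and GG around 6 letters that are each A or T, was in none of the 8 promoters and is in 3.05% of all. The pollen elements AGAAA and GTGA, searched on both strands, were in the AGL104 promoter too, but AGAAA is in 88.49% and GTGA in 84.43% of promoters. A match is a description of the letters and does not show binding.

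AGL104 had 17, 52 and 91 reads in atcep1 at stages A, B and C, which is 4.06, 12.3 and 20.4 RPKM. In WT it had 6, 36 and 32 reads, or 1.47, 8.67 and 7.44 RPKM. It was higher in atcep1 at every stage; the WT level was about the same at B and C while the atcep1 level was higher at C than at B. AGL104 was 1.13 ± 0.28 (SE) higher in atcep1 on the log2 scale (adjusted p = 0.0189, edgeR). The ratio of reads was 2.77 at A (95% interval 1.04 to 8.57), 1.42 at B (0.913 to 2.24) and 2.74 at C (1.81 to 4.23), so at B the interval included 1. This call is the least firm of the 3: the difference was 0.75 without the 2 stage C libraries (adjusted p = 0.112), 1.07 without the 2 stage A libraries (adjusted p = 0.0607), and 1.16 with DESeq2 (adjusted p = 0.0741). Leaving out 1 library ended the call for atcep1 at A (adjusted p = 0.0581), atcep1 at C (0.108) and WT at C (0.117, edgeR). Of 15 alternatives with a stage term 9 called it, with adjusted p from 0.00241 to 0.117.

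AGL67 (AT1G77950), the remaining S-clade gene, lies 3646 bases from AGL66 on chromosome 1. It was not listed in any library and so counted as 0 reads, for which the exact 95% Poisson upper limit of the expected count is 3.69 reads per library. Its RefSeq models leave room for uniquely mapped reads: of the stretches of 49 bases, the length that 1 read covers, 282 (26.0%) of model 1 and 74 (8.5%) of model 2 fit neither the other model nor another place in the genome.

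**Figure D1:**
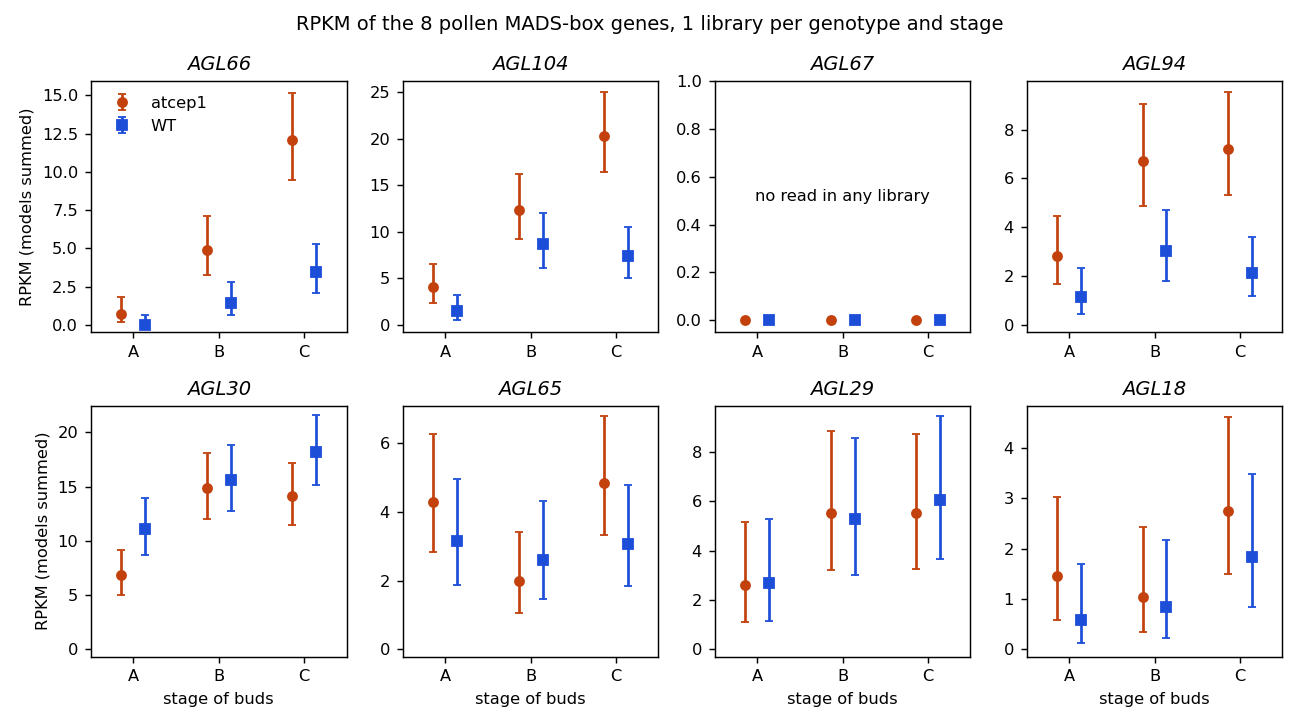
RPKM of the 8 genes (vertical axis, models summed) at bud stages A, B and C (horizontal axis) in atcep1 (circles) and WT (squares), 1 library per point; bars are exact 95% Poisson intervals of the read count on the RPKM scale, and cover counting error only. AGL66, AGL104 and AGL94 are higher in atcep1 at each stage, AGL30 is lower, and AGL29 is about level; AGL67 had no read.

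AGL94 (AT1G69540) is a P-clade partner of the S-clade proteins. It had 18, 43 and 49 reads in atcep1 at stages A, B and C, which is 2.83, 6.71 and 7.21 RPKM. In WT it had 7, 19 and 14 reads, or 1.13, 3.01 and 2.14 RPKM. The atcep1 library was higher at every stage, and the lowest atcep1 level lay just under the highest WT level. AGL94 was 1.47 ± 0.28 (SE) higher in atcep1 on the log2 scale (adjusted p = 0.0064, edgeR). The ratio of reads was 2.51 at A, 2.23 at B and 3.37 at C, and each of the 3 intervals lay above 1 (lowest bounds 1.0005, 1.27 and 1.83). All 15 alternatives with a stage term made this call, those that leave out 1 library or stage included, with adjusted p from 0.0031 to 0.04002.

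AGL30 (AT2G03060) is a P-clade gene and had the highest mean level of the 8, at 13.4 RPKM over the 6 libraries. It had 45, 98 and 100 reads in atcep1 at stages A, B and C, which is 6.87, 14.9 and 14.1 RPKM. In WT it had 73, 106 and 128 reads, or 11.1, 15.6 and 18.2 RPKM. The atcep1 library was the lower one at every stage, by least at B. The fitted difference was -0.34 ± 0.16 (SE) on the log2 scale and was not called (adjusted p = 0.153, edgeR). The ratio of reads was 0.602 at A (95% interval 0.406 to 0.884), 0.911 at B (0.685 to 1.21) and 0.752 at C (0.573 to 0.985).

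AGL65 (AT1G18750), the last P-clade gene, had 27, 13 and 33 reads in atcep1 at stages A, B and C, which is 4.30, 1.999 and 4.84 RPKM. In WT it had 18, 15 and 19 reads, or 3.14, 2.61 and 3.07 RPKM. With its models summed, atcep1 was higher at A and C and lower at B, and all 3 intervals of the ratio included 1. The fitted difference was 0.48 ± 0.30 (SE) on the log2 scale and was not called (adjusted p = 0.261, edgeR).

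AGL29 (AT2G34440) had 8, 17 and 18 reads in atcep1 at stages A, B and C, which is 2.61, 5.52 and 5.51 RPKM. In WT it had 8, 16 and 19 reads, or 2.68, 5.27 and 6.04 RPKM. The genotypes lay side by side at every stage, and the fitted difference was 0.02 ± 0.30 (SE) on the log2 scale (adjusted p = 0.964, edgeR). With so few reads the ratio at stage C, 0.912, has an interval of 0.451 to 1.84, so a change of up to about that size would not have been seen.

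AGL18 (AT3G57390) had 7, 5 and 14 reads in atcep1 at stages A, B and C, which is 1.46, 1.04 and 2.75 RPKM, against 3, 4 and 9 reads in WT, or 0.578, 0.844 and 1.83 RPKM. The atcep1 library was the higher one each time, and each interval of the ratio included 1. AGL18 fell below the filter on low counts and was not tested. Most of its reads may be missing from unique counts, since only 6.0% of the 49-base stretches of its main model do not also fit its other model.

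By mean RPKM over the 6 libraries the order was AGL30 (13.4), AGL104 (9.05), AGL29 (4.61), AGL94 (3.84), AGL66 (3.76), AGL65 (3.33), AGL18 (1.42) and AGL67. The ranges over libraries of neighbours in this order overlapped in every pair of genes with reads. The levels of AGL30, AGL65 and AGL18, which have 2 listed models each, may be too low, because a read that fits both models of a locus is not a unique one.

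**Figure D2:**
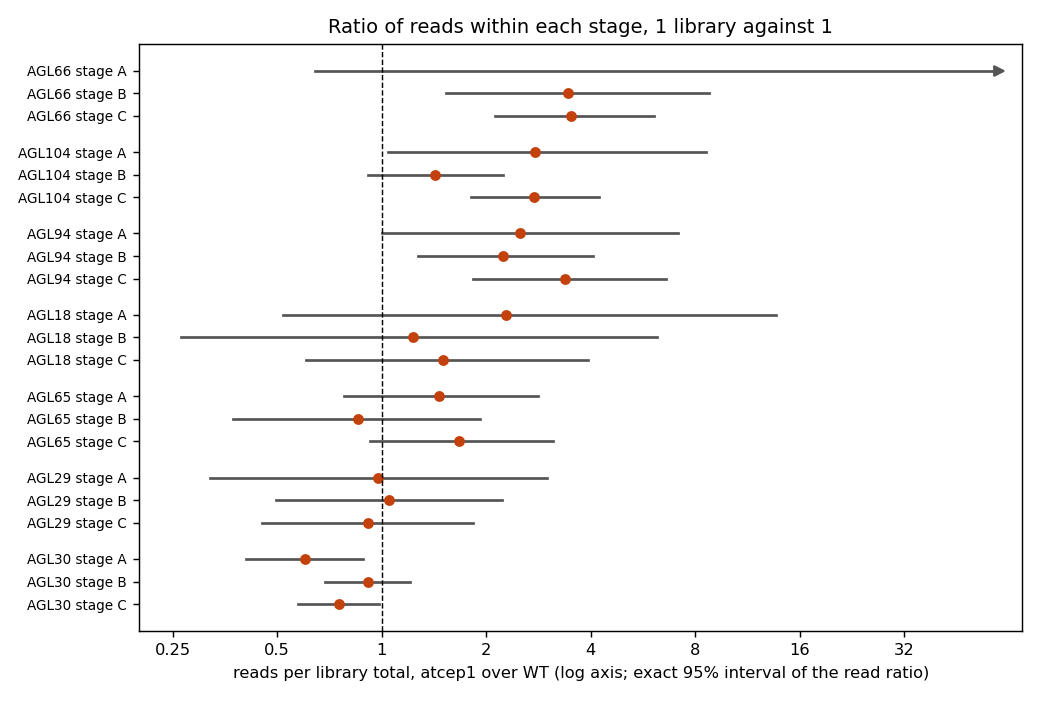
Ratio of reads per library total, atcep1 over WT (horizontal log axis), for the 7 genes with reads at each stage; points are ratios, lines exact 95% intervals for 1 library against 1, and the dashed line marks no difference. All 3 intervals of AGL94 lie above 1, as do those of AGL66 at B and C and of AGL104 at A and C, while those of AGL30 at A and C lie below 1; the arrow marks AGL66 at A, where WT had no read.

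Between bud stages A and B, in a fit that pools the genotypes, the S-clade genes rose most. In all tested genes 4.36% were called higher at B than at A. AGL66 rose by 3.16 ± 0.60 (SE) on the log2 scale (adjusted p = 0.0205, edgeR), and AGL104 rose by 2.03 ± 0.39 (adjusted p = 0.0206, edgeR). Without the atcep1 library of stage A neither was called, though neither step was smaller: it was 5.97 for AGL66, a value that rests on 0 reads in the WT library of stage A and is no bound, and 2.28 for AGL104 (adjusted p = 0.111 and 0.133, edgeR), and without that of stage B AGL66 was not called (adjusted p = 0.0501). Over the alternatives the adjusted p was 0.00338 to 0.111 for AGL66 and 0.00127 to 0.133 for AGL104. AGL94, AGL29 and AGL30 had positive steps that were not called: 1.36 ± 0.36 (adjusted p = 0.0756), 1.07 ± 0.39 (adjusted p = 0.217) and 0.84 ± 0.21 (adjusted p = 0.0588, edgeR). AGL65 had a step of -0.62 ± 0.38, also not called (adjusted p = 0.524, edgeR). Without the atcep1 or the WT library of stage C, 4 genes were called, AGL94 and AGL30 being added (adjusted p of 0.0249 and 0.015 without the atcep1 one, 0.0329 and 0.0251 without the WT one).

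From stage B to stage C none of the 8 genes was called, where 4.28% of all tested genes were called higher at C; at an unadjusted p under 0.05 in edgeR there was 1, AGL66, and DESeq2 and limma called none. AGL66 had the largest step, 1.35 ± 0.35 (SE) on the log2 scale, and just missed the threshold (adjusted p = 0.0563, edgeR); it passed without a filter (0.0394), without the atcep1 library of stage A (0.0473) and without the WT one (0.0253), over a range of 0.0253 to 0.572. Its ratio of reads, C over B, was 2.46 in atcep1 (95% interval 1.57 to 3.95) and 2.41 in WT (1.02 to 6.33), so both genotypes showed it. AGL104 had a ratio of 1.65 in atcep1 (1.16 to 2.37) and 0.858 in WT (0.516 to 1.42); the intervals overlap, and with 1 library each the difference between the genotypes has no test.

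The summed levels of the 2 clades are given beside each other with a limit. AGL30 and AGL65 count only reads that fit 1 of their 2 models (33.6% and 22.6% of the 49-base stretches in AGL65), so the P-clade sum is too low by an unknown factor. That factor may differ between libraries, because the shares of reads on the models of both genes differed between the genotypes (below). A ratio of the clades is thus not the ratio of their transcripts, and its difference between genotypes may partly reflect that factor. The summed level of the S-clade genes was 4.76, 17.2 and 32.4 RPKM in atcep1 at A, B and C, against 1.47, 10.09 and 10.9 RPKM in WT. The summed level of the P-clade genes was 14.0, 23.6 and 26.2 RPKM in atcep1, against 15.3, 21.2 and 23.4 RPKM in WT. The S clade therefore stood at 0.341, 0.732 and 1.24 of the P clade in atcep1 and at 0.0956, 0.476 and 0.465 of it in WT. It was higher at B than at A in both genotypes; at C it was higher again in atcep1 and about the same as at B in WT. The ratio was not tested.

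The atcep1 libraries had a higher summed level of late pollen genes, whose sum rose with stage. They also had a higher summed level of tapetum genes, whose sum fell with stage. Because of the late pollen genes, each atcep1 library was also set beside the WT library of the next stage. At atcep1 stage A the ratio of reads over WT stage B was 0.468 for AGL104 (95% interval 0.247 to 0.855), 0.496 for AGL66 (0.109 to 1.85), 0.939 for AGL94 (0.465 to 1.89) and 0.421 for AGL30 (0.29 to 0.602). At atcep1 stage B the ratio over WT stage C was 1.66 for AGL104 (1.05 to 2.66), 1.43 for AGL66 (0.777 to 2.68), 3.13 for AGL94 (1.68 to 6.20) and 0.781 for AGL30 (0.594 to 1.02). AGL104 in atcep1 thus lay below the WT library of the next stage at A and above it at B, while for AGL66 both intervals included 1. Both intervals of AGL65, of AGL29 and of AGL18 included 1 as well. Per 1000 RPKM of the 30 late pollen genes, AGL66 had 1.15, 1.56 and 1.58 RPKM in atcep1 at A, B and C and 0, 0.925 and 0.837 RPKM in WT. On the same scale AGL104 had 6.61, 3.92 and 2.67 RPKM in atcep1 and 5.86, 5.63 and 1.81 RPKM in WT, so that its order of the genotypes turned round at B. AGL94 had 4.6012, 2.13 and 0.946 RPKM in atcep1 and 4.4959, 1.95 and 0.521 RPKM in WT, nearly level at A and B. AGL30 had 11.2, 4.72 and 1.85 RPKM in atcep1 and 44.2, 10.109 and 4.43 RPKM in WT, and AGL65 7.00, 0.636 and 0.635 RPKM in atcep1 and 12.6, 1.69 and 0.746 RPKM in WT, both lower in atcep1 at every stage. The sum used as the unit is made up of different genes at different stages. In WT at A, ACT3 held 114 and SKS13 24.5 of the 250 RPKM. In WT at C, ACT3 held 105 and SKS13 1255.5 of the 4108 RPKM. A value on this scale, and its order of the genotypes, depends on that mix as well. No test was run on this scale.

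The late pollen list holds genes of pollen tube growth, sugar and ion transport and the actin cytoskeleton. For this and the lists below the background is all tested genes. Of these, 16.0% were called higher and 11.5% lower in atcep1, and 4.36% and 4.28% higher in the steps A to B and B to C. Of its 30 genes 29 were tested. With all 6 libraries 13 were called higher in atcep1 and none lower (15 and none at an unadjusted p under 0.05 in edgeR). DESeq2 called 11, limma 12, and none was called without the stage term. With libraries left out 11 to 19 were called. Without the atcep1 or the WT library of stage C, 11 were called higher and 2 lower. Without both of these it was 11 and 1, and without WT at A 14 and 1. The median difference was 0.72 on the log2 scale, beside -0.0028 over all tested genes. The largest was that of STP9, a monosaccharide transporter of pollen, with 17.9, 73.9 and 82.7 RPKM in atcep1 at A, B and C and 1.43, 5.65 and 10.5 RPKM in WT (3.41 ± 0.16 on the log2 scale, adjusted p = 1.99e-05, edgeR). AHA6, a plasma membrane proton pump, TIP1;3, an aquaporin, and SKS11, a protein related to multicopper oxidases, followed with 3.23, 3.08 and 2.57 on the log2 scale. Between A and B 23 of the 29 rose with a median step of 3.33, and between B and C 19 rose with a median of 1.62, beside medians of 0.0092 and -0.017 over all tested genes; for B to C DESeq2 called 8, and limma 8 or 2 at pseudocounts of 1 and 0.1.

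Other transcription factors of pollen were mostly too low to test. Of 14 on the list 6 were tested; 3 were called higher in atcep1 and none lower (4 and none at an unadjusted p under 0.05 in edgeR), with a median of 0.69 on the log2 scale. DESeq2 called LBD27 alone, and so did edgeR without either or both libraries of stage C. LBD27, needed for the asymmetric division of microspores, had 15.3, 24.9 and 22.6 RPKM in atcep1 at A, B and C and 5.41, 8.29 and 2.86 RPKM in WT (1.99 ± 0.28, adjusted p = 0.00168, edgeR). DAZ3, a zinc finger gene of the sperm lineage, was higher by 1.12 ± 0.32 (adjusted p = 0.0327, edgeR) and WRKY2, which acts with WRKY34 in male gametophytes, by 0.54 ± 0.14 (adjusted p = 0.0229, edgeR). Of the 6 libraries, DAZ3 kept its call only when the one left out was WT at A (adjusted p of 0.0577 to 0.129 without any other), and WRKY2 was also not called by limma (0.0723 and 0.0744). Of the 4 sperm cell genes 3 had reads and 2 were tested; HTR10, a histone H3 variant of sperm, was called higher, by 1.36 ± 0.37 (adjusted p = 0.0261, edgeR), and the median was 0.90. HTR10 was not called by DESeq2 (adjusted p = 0.169), nor by edgeR without atcep1 at A or B or WT at B (0.0714 to 0.143).

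The floral MIKCc genes, relatives of AGL18 that include floral organ identity genes and others such as AGL15, FUL and CAL, give a comparison within the MADS-box family. Of 15 genes 13 were tested; 4 were called higher in atcep1 and none lower (4 and 1 at an unadjusted p under 0.05 in edgeR), with a median of 0.16 on the log2 scale. FUL and AG were higher by 1.39 ± 0.17 and 1.30 ± 0.27, and CAL and AP1 by 0.83 ± 0.21 and 0.66 ± 0.09 (adjusted p = 0.000764, 0.00913, 0.0213 and 0.00138, edgeR). CAL was not called by DESeq2 (adjusted p = 0.119), nor by edgeR without any 1 library of stage A or B (0.0653 to 0.115). In the step from A to B, where AGL66 and AGL104 rose, none of the 13 was called by edgeR, DESeq2 or limma (4 had an unadjusted p under 0.05 in edgeR and 1 in DESeq2), and their summed level stayed between 1030 and 1170 RPKM in atcep1 and 829 and 974 RPKM in WT over the stages.

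All tested tapetum genes were called by edgeR with all 6 libraries. DESeq2 called 9 of 11, edgeR called 8 to 10 with libraries left out, and none was called without the stage term. The 10 tested of 11 were higher in atcep1, with a median of 2.04 on the log2 scale, led by ATA20 (3.78 ± 0.18), A6, a glucanase-like gene (3.30 ± 0.47), CYP703A2, a sporopollenin enzyme (2.85 ± 0.27) and MS2, an exine enzyme (2.13 ± 0.17). From B to C 9 of the 10 were called lower, where 380 of all 16114 tested genes were. DESeq2 called 7 lower in this step, and limma 8 or 6 at pseudocounts of 1 and 0.1. Of 7 male meiocyte genes 5 were tested and 2, SDS and DMC1, were called lower, by -1.01 ± 0.32 and -0.77 ± 0.13, with a median of -0.77; SDS was not called by DESeq2 or limma, or without any 1 library of stage A or B. Of 4 carpel and ovule genes 3 were tested and INO, an ovule gene, was called lower (-1.43 ± 0.25), with a median of -0.20.

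**Figure D3:**
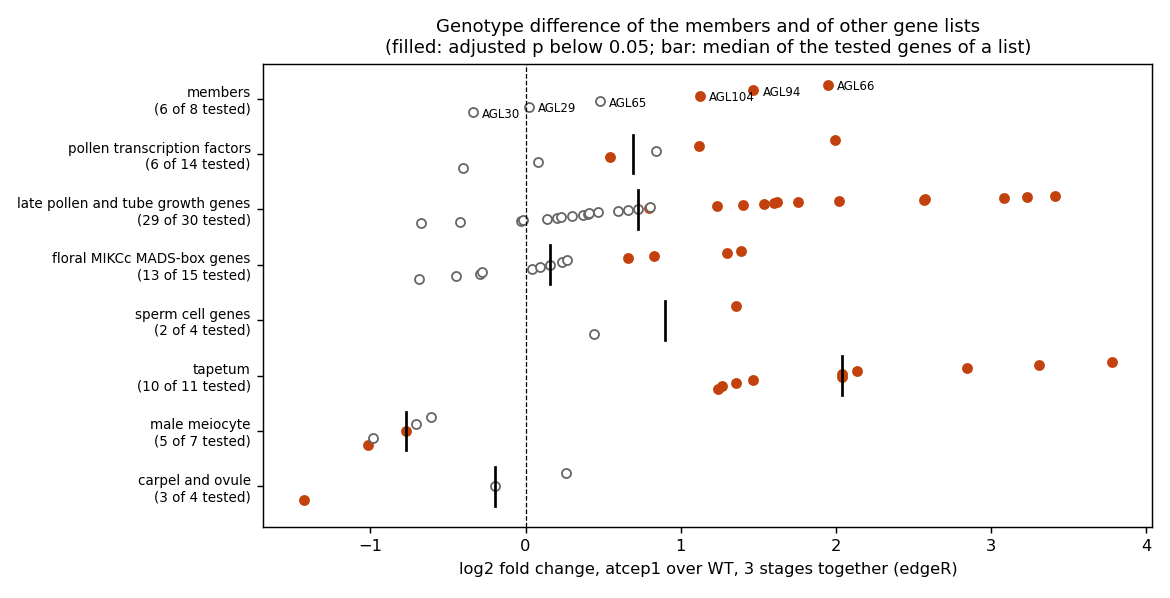
Log2 fold change, atcep1 over WT with the 3 stages together (horizontal axis, edgeR), of each tested gene among the 8 members and in 7 other lists; filled points have an adjusted p below 0.05, open points do not, and bars are medians of the lists. AGL66, AGL94 and AGL104 lie within the range of the late pollen genes and to the left of the highest tapetum genes.

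The 2 listed models of AGL65 gave a difference that their sum hides; the comparison was chosen after the values were seen. Model 1 (AT1G18750.1, chr1:6466761-6469640 in TAIR10, plus strand, 1582 bases) starts further upstream, and model 2 (AT1G18750.2, chr1:6467331-6469984, 1364 bases) ends further downstream. By RefSeq's annotation the coding sequence of model 1 is 1170 bases long and starts in exon 2, while that of model 2 starts at a later ATG and is 1005 bases long. The stretch of coding sequence from the first ATG to the base before the other is shown because it separates the models: it is at chr1:6467266-6467403 (TAIR10.1, RefSeq, plus strand, 5′ to 3′), holds 46 codons, and encodes the start of the DNA-binding MADS domain. The 65 bases in capitals lie in model 1 alone:
AGL65 coding stretch: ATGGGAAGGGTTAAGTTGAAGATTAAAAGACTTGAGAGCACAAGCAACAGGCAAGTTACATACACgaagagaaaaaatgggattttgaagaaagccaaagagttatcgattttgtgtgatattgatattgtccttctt
Model 1 had 20, 12 and 28 reads in atcep1 at A, B and C and 5, 3 and 9 reads in WT. Model 2 had 7, 1 and 5 reads in atcep1 and 13, 12 and 10 reads in WT. The models thus differed in opposite directions at every stage. For model 2 the interval of the read ratio, atcep1 over WT, included 1 at A (0.178 to 1.42) and C (0.129 to 1.55). The share of the reads on model 1 was 74.1%, 92.3% and 84.8% in atcep1 and 27.8%, 20.0% and 47.4% in WT, without overlap between the genotypes. Over the stages together it was 82.2% of 73 reads in atcep1 (exact 95% binomial interval 71.5% to 90.2%) and 32.7% of 52 reads in WT (20.3% to 47.1%).

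With each model as a feature of its own, model 1 of AGL65 was 1.83 ± 0.34 (SE) higher in atcep1 on the log2 scale (adjusted p = 0.00604, edgeR), where 16.0% of 16061 models were called higher and 11.8% lower. Model 1 passed the filter on low counts through the atcep1 libraries alone, where it was high, so this call is no independent support. Without a filter its difference was 1.81 ± 0.37 (adjusted p = 0.00179, edgeR). Model 2 was below the filter; without a filter its difference was -1.43 ± 0.51 (adjusted p = 0.0604, edgeR). A test of the difference between the models of a locus (edgeR's diffSpliceDGE, no filter on low counts) called AGL65 (adjusted p = 0.0277), where 3 of 3605 loci, 0.0832%, were called; with the filter AGL65 could not be tested. Among 1076 loci with models 1 and 2 and at least 10 reads in every library, the share of model 1 was above all WT libraries in all 3 atcep1 libraries at 7.71% and below them at 6.04%. AGL65 had the largest positive difference in mean share of these loci, 52.0 percentage points, where the median was 0.11, and the second largest in either direction. It also had few reads, which widens such a difference.

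AGL30 differed the other way. Its models start at the same base, and model 1 (chr2:901143-904149) ends 580 bases after model 2 (chr2:901143-903569, both TAIR10, plus strand). Model 1 had 33, 72 and 78 reads in atcep1 at A, B and C and 62, 97 and 116 reads in WT, and model 2 had 12, 26 and 22 reads in atcep1 and 11, 9 and 12 reads in WT. The share of model 1 was 73.3%, 73.5% and 78.0% in atcep1 and 84.9%, 91.5% and 90.6% in WT, again without overlap, or 75.3% of 243 reads in atcep1 (69.4% to 80.6%) and 89.6% of 307 reads in WT (85.6% to 92.8%). Model 1 alone was called lower in atcep1, by -0.59 ± 0.17 (adjusted p = 0.0341, edgeR), and model 2 was not called (0.90 ± 0.35, adjusted p = 0.0895). The test of the difference between models called AGL30 with the filter on low counts (adjusted p = 0.0028; 15.3% of 157 loci were called) and not without it (adjusted p = 0.164).

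**Figure D4:**
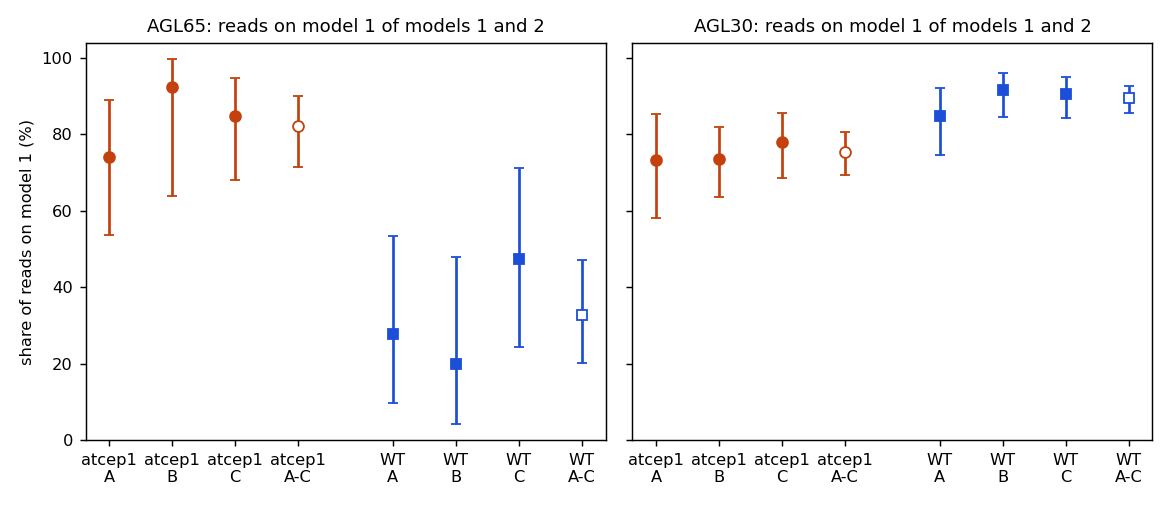
Share of the reads of AGL65 (left) and AGL30 (right) that fell on model 1 of the models 1 and 2 (vertical axis, percent) in each library of atcep1 (circles) and WT (squares), and over stages A to C together (open symbols); bars are exact 95% binomial intervals. For AGL65 the atcep1 libraries lie above the WT libraries, and for AGL30 they lie below them.

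Relative to WT, atcep1 had a larger share of reads on the model that starts further upstream in AGL65. In AGL30 it had a larger share on the model that ends earlier. The models of AGL30 could not be rebuilt, so where the reads that fit 1 of them alone can fall is not known. Reads that fit model 1 of AGL65 alone can fall on its bases 1 to 525 and 1496 to 1582, and those that fit model 2 alone on its bases 1019 to 1364. Shares at other loci are given by how their models lie, which is not a measure of read position itself. Among the 1076 loci, model 1 started at least 49 bases upstream and model 2 ended at least 49 bases downstream of the other at 17; the share of model 1 was higher in all atcep1 libraries at 4 of these, AGL65 among them, and lower at none, with a median difference of 0.45 percentage points. At the 39 loci laid out the other way the share of model 1 was higher at 1 and lower at 12, with a median of -3.47 points. At the 239 loci where model 1 ended at least 49 bases downstream, as in AGL30, it was higher at 8 and lower at 28, with a median of -0.33 points, beside -14.1 points for AGL30. At the 161 loci where model 1 started at least 49 bases upstream, its share was higher in all atcep1 libraries at 15 and lower at 6, with a median of 0.24 points. The difference in mean share was positive at 9 of the 17 loci, 9 of the 39, 94 of the 239 and 95 of the 161. The part of read position along transcripts in the differences of AGL65 and AGL30 was not tested.

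**Figure D5:**
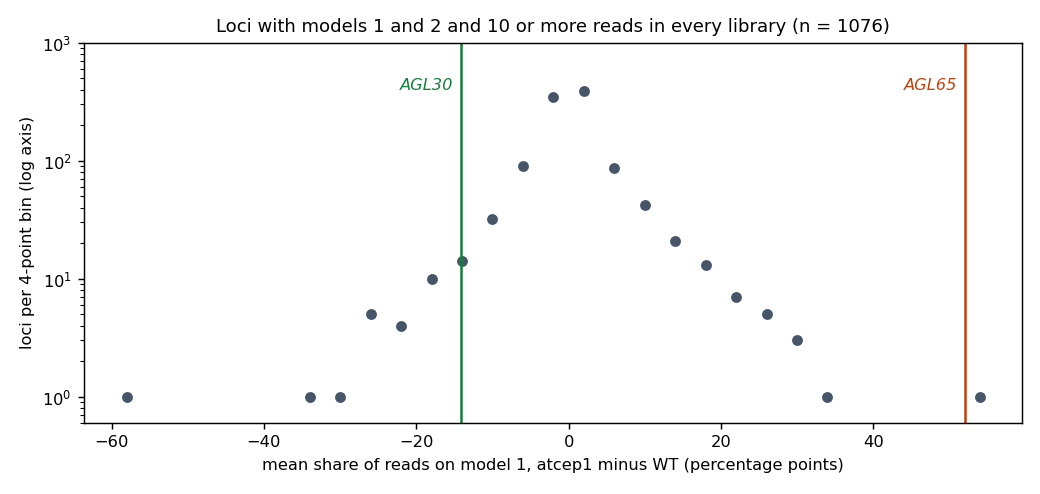
Number of loci (vertical log axis, bins of 4 percentage points, empty bins not drawn) by the difference in mean share of reads on model 1, atcep1 minus WT (horizontal axis), over 1076 loci with models 1 and 2 and at least 10 reads in every library. Most loci lie near 0; AGL65 lies at 52.0 and AGL30 at -14.1 percentage points.

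The genes whose levels correlated best with those of each member were found among loci with a mean of at least 5 RPKM. The measure was Pearson's r of log2(RPKM + 1) over the 6 libraries, which share 2 genotypes and 3 stages. With about 12893 loci compared, a high r over 6 libraries is common. Pearson's r also ignores how large the changes are. For AGL66 they were PNC2, a peroxisomal nucleotide carrier (r = 0.997), and ATARFA1B, an ADP-ribosylation factor (r = 0.996), and 259 loci had an r above 0.95. For AGL104 they were TLP18.3, a thylakoid lumen protein (r = 0.998), and PRF4, a profilin (r = 0.995), with 111 loci above 0.95. For AGL94 they were AT-HSFB2A, a heat shock factor (r = 0.998), and AAE5, an acyl activating enzyme (r = 0.994), with 90 loci above. For AGL30 they were F2KP, a fructose-2,6-bisphosphatase (r = 0.992), and AT1G14642, of unknown function (r = 0.990), with 18 loci above. For AGL65 they were CYP81K1, a cytochrome P450 (r = 0.949), and AtVGT1, a vacuolar glucose transporter (r = 0.942), with none above. PRF4 had 32.5, 134.6 and 202.9 RPKM in atcep1 at A, B and C and 11.6, 65.2 and 58.6 RPKM in WT, so that, like AGL104, it was no higher at C than at B in WT. Some of these loci changed little. Over the libraries F2KP spanned 38.7 to 43.9 RPKM, beside 6.87 to 18.2 RPKM for AGL30. TLP18.3 spanned 164 to 221 RPKM, beside 1.47 to 20.4 RPKM for AGL104. Others changed more, such as PRF4 and ATARFA1B (0 to 19.6 RPKM).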

How the data were processed

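Bud RNA was enriched on oligo(dT), copied from random hexamers and read on an Illumina HiSeq, per the labels' protocols; no kit that marks strand is named. The authors deposited, per the file headers, a count of uniquely mapped reads, the percent of the model covered and the RPKM for each transcript model. The deposited counts sum to the totals in the headers, and the deposited RPKM equal count over length and total. TAIR10 is the build in the submitters' processing notes; the aligner is not given in the sources used here. A model that a file does not list was set to 0 reads, and models were summed to loci.

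Genotype and stage steps were tested with edgeR 4.0.16 (R 4.3.3; TMM, filterByExpr on genotype, quasi-likelihood test, stage plus genotype, Benjamini-Hochberg adjusted p below 0.05), checked on simulated data. SE is the log2 fold change over the root of F. With 1 library per group, p-values measure variation over stages, which edgeR draws towards a trend over all genes. Nothing says that libraries came from separate plants. Read ratios and shares carry exact conditional or binomial 95% intervals, which hold for counting error alone: PCR duplicates could not be removed. Alternatives used DESeq2 1.42.0, limma 3.58.1, no TMM, no filter, other pseudocounts, single models, no stage term, and left-out libraries.

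Named genes are the members, for each list up to 4 called genes by size, and for members with at least 100 reads the 2 loci most alike. ACT3 and SKS13 are named for their part in the late pollen sum. Members and lists were chosen with earlier results of these data known. Read stretches of 49 bases, the median covered by 1 read, were matched to models rebuilt from RefSeq exons (TAIR10.1; 99.97% of 29866 models overlapped their RefSeq gene), which was not possible for AGL30. Promoters and coding sequence come from RefSeq.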

Additional observations from a re-analysis of the deposited data

How the results depend on the processing

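No paired analysis was possible because the labels give no replicate numbers; the genotypes are paired by stage in the fit itself, through its stage term. Of the 8 genes 3 were called between genotypes, and 2 with DESeq2, which left out AGL104. The count was 5 with the most-read model of each locus (AGL65 higher and AGL30 lower added). There AGL65 passed the filter on low counts through the atcep1 libraries alone. The count was 0 without the stage term (1 at an unadjusted p under 0.05 in edgeR) and 1 to 3 when leaving out libraries. Over all genes 4432 were called, 2236 with DESeq2, 495 without the stage term and 2310 to 5073 without 1 library or stage. For A to B 2 of the 8 genes were called (0 to 4 with libraries left out) and 780 of all genes (449 to 1682). For B to C none of the 8 was called, 1 without a filter and 0 to 1 with libraries left out, and 1069 of all genes, with 577 in DESeq2, 690 and 365 in limma at pseudocounts of 1 and 0.1, and 706 to 1508 with libraries left out.

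Signs turned for values that were not called: AGL29 between genotypes (0.023; -0.037 without TMM, -0.028 and -0.033 in limma at pseudocounts of 1 and 0.1, -0.022 to 0.045 with libraries left out), and, with libraries left out, the B to C steps of AGL104 (-0.20 to 0.81), AGL30 (-0.047 to 0.31) and AGL94 (-0.46 to 0.19). Model 2 of AGL30 alone gave 0.90, or 0.88 without a filter, against -0.34 for the sum, and model 2 of AGL65 gave -1.43 against 0.48. Depth limits AGL67 (no read), AGL66 at stage A (4 reads in atcep1 and 0 in WT), and AGL18, AGL29 and AGL65, at 3 to 33 reads per library, where each interval of the ratio within a stage included 1. The causes were not tested.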
